A study of Mus musculus with 2 samples.

Results

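The genes described here encode the autophagy machinery, its cargo receptors, and lysosomal proteins with their regulators of the TFEB family, 38 genes chosen by symbol from a table of 24081. All 38 were in the table, and 37 had a mean of at least 20 reads over both libraries and are called measured. Wipi1, which binds phosphoinositides on the forming membrane, had 3 reads in the KO library and 2 in the WT library and was not measured. The table holds read counts of 2 RNA-seq libraries of regulatory T cells (Treg cells, the Foxp3-positive class of CD4+ T cells, which dampens immunity). CD4+ YFP+ cells were sorted from the lymph nodes and spleens of 5-week-old C57BL/6 mice. The KO library came from Foxp3cre/wt mice with both alleles of a gene of the SUMOylation pathway floxed, and the WT library from Foxp3cre/wt mice with 1 floxed allele of it. Both groups therefore carry the Foxp3-driven Cre recombinase, YFP marks the cells that made it, and the floxed allele of the WT cells is exposed to it too. The WT library is thus no control with the gene untouched, and how far recombination went in either group is not reported here. Foxp3 lies on the X chromosome, so that in heterozygous females the Treg cells using the other Foxp3 allele do not express Cre and fall outside the gate. Cells of 5 to 10 mice were pooled for each library, with 1 library per group. With nothing to measure the spread between mice, differences are given without a p-value.

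Autophagy encloses cytoplasm in a double membrane and delivers it to the lysosome, where hydrolases break it down. The ULK1 kinase complex starts the process, a class III phosphatidylinositol 3-kinase marks the membrane, ATG2 and ATG9 proteins supply its lipids, and a conjugation cascade attaches LC3 and GABARAP proteins to it. TFEB and TFE3 are transcription factors that switch on lysosomal and autophagy genes and are held in the cytoplasm by mTORC1. In mouse Treg cells, autophagy is known to be needed for survival and lineage stability.

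Gene reads numbered 23789264 in KO and 11662867 in WT, and counts were brought to a common scale by TMM (trimmed mean of M values) factors. The grouping rests on the sample titles, since both libraries have the same genotype label, a wild-type one. Ratios are KO over WT on the log2 scale with a pseudocount of 1 and were called at 1.5-fold or more. Folds of single genes use no pseudocount and carry an exact 95% interval for counting error only. Levels are given as RPKM, reads divided by the length of the gene's principal transcript and by the effective library size, and as CPM, which leaves length out. All 6 markers fixed for Treg cells were measured in both libraries, at a summed 6003 CPM in KO and 4740 in WT. They went both ways past the call, with Foxp3 1.85-fold higher in KO, Ikzf2 (Helios) 1.59-fold lower, Ctla4 1.61-fold lower and the other 3 between. All 9 markers of monocytes and macrophages were measured too, at a summed 803 and 841. B cell markers summed to 91.2 in KO and 113 in WT, and erythroid markers to 5.57 and 14.3. The 2 measured erythroid markers, Alas2 and Slc4a1, were 2.39-fold and 3.22-fold lower in KO. Hba-a1 was at 0 in both, but reads aligned to several places were left out, so this 0 need not mean absence.

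Among the measured members 4 stood higher in the KO library and none stood lower at 1.5-fold. The higher ones were Atg2a, Atg9a, Map1lc3a and Tfeb, which stand for lipid transfer, lipid scrambling, an LC3 protein and the lysosomal regulator. That is 4 of 37 measured members, or 10.8%, where 7.43% of all 10899 measured genes were at least 1.5-fold higher. The count of 0 of 37 lower stands beside 5.51% of all measured genes. The other 33 members lay between, and the median ratio was -0.02, against 0.01 for all measured genes. The share of higher calls was near that of the table. Above 0 lay 15 of 37 ratios, where 51.4% of all genes did, and below 0 lay 22, where 48.6% did. The same 4 members were called higher, and 0 lower, with DESeq2 factors (where 7.37% of all genes were higher and 5.67% lower), with upper-quartile scaling (7.38% and 5.67%) and with a pseudocount of 5 (7.06% and 5.17%). With total-count scaling only Atg9a and Map1lc3a were called (2 of 37, where 5.72% were higher and 6.95% lower). At a 2-fold call no member passed, where 1.59% of genes were higher and 2.08% lower. In bulk RNA a lower level per cell and a smaller share of cells that make the transcript cannot be told apart.

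Besides the 4 called members, others had counting intervals that did not hold 1, each at less than 1.5-fold. The interval lay wholly above 1 for 7 of 37 members (18.9%, where 29.1% of all measured genes did so) and wholly below 1 for 12 (32.4%, where 25.6% did so). The remaining 18 intervals held 1. These intervals hold no spread between mice.

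**Figure D1:**
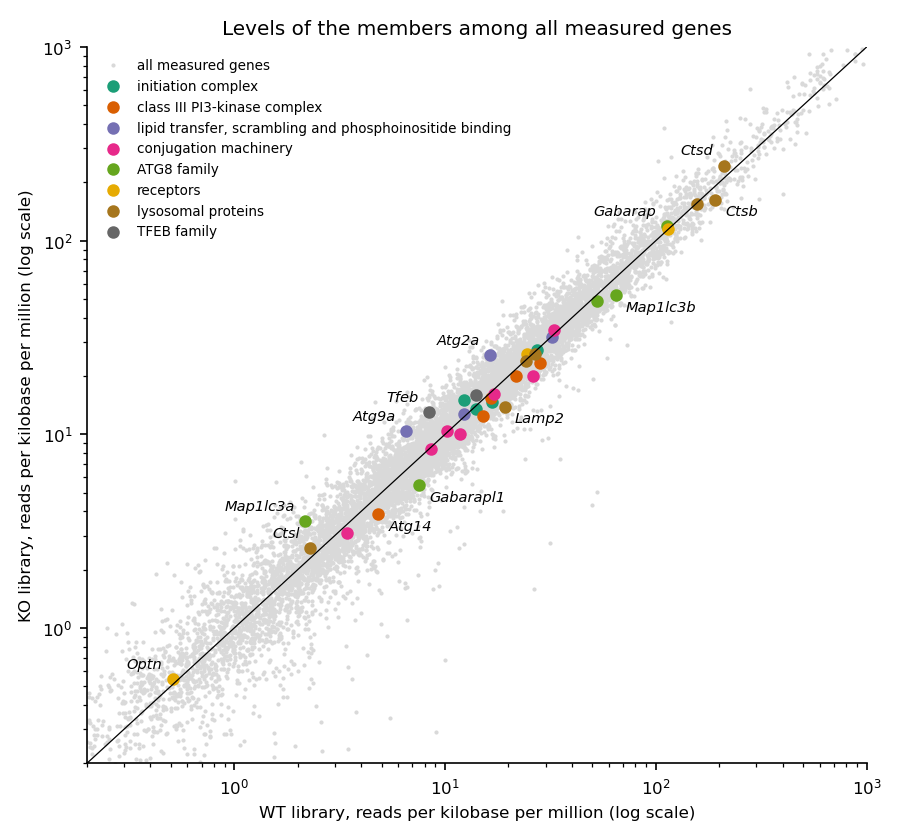
Levels of the 37 measured members (coloured by role) and of all measured genes (grey), in RPKM in the KO library (vertical axis) and the WT library (horizontal axis), both on log scales; the line marks equal levels. Members run from Optn, at 0.545 in KO and 0.511 in WT, to Ctsd, at 244 and 210, and lie along the line.

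Levels of the members spanned a wide range, in a similar order in both libraries. The aspartic protease gene Ctsd was at the top, at 244 RPKM in KO and 210 in WT. Then came the cysteine protease gene Ctsb, at 163 in KO and 190 in WT, and the lysosomal membrane protein gene Lamp1, at 155 and 157. The ubiquitin-like Gabarap had 119 RPKM in KO and 113 in WT, and the receptor gene Sqstm1 (p62) had 115 and 114. These 5 genes lay above the 95th percentile of measured genes in both libraries. Conjugation genes ran from the E2-like enzyme Atg3, at 34.4 in KO and 33.0 in WT, down to the E2-like enzyme Atg10, at 3.08 and 3.43, with the E1-like enzyme Atg7 at 8.44 and 8.57. The largest move in rank was that of Atg2a, which stood at place 13 of 37 in KO and 21 in WT. The receptor gene Optn was lowest among measured members, at 0.545 RPKM in KO and 0.511 in WT, resting on 33 and 16 reads. Of the 36 pairs of neighbours in the order of levels, 22 in KO and 26 in WT had overlapping counting intervals, so their order is not resolved. The level of Ctsl is set against a transcript of 6168 bases and depends on that choice.

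Tfeb was higher in the KO library, and its relative Tfe3 slightly so except where the GC and length trend was removed. Tfeb (chromosome 17, 47737030 to 47792419, plus strand, mm10), which encodes the main activator of lysosomal genes, had 692 reads in KO and 230 in WT. Per length that was 13.0 RPKM in KO and 8.36 in WT, 1.56-fold higher (1.34 to 1.81). Tfe3 had 1206 reads in KO and 552 in WT and was 1.13-fold higher (1.02 to 1.25). Tfeb therefore made up 45.0% of the pair's summed level in KO and 37.3% in WT. With total-count scaling Tfeb stood at 0.56, just under 1.5-fold, and after removal of the trend with GC content and length the ratios were 0.28 for Tfeb and -0.08 for Tfe3.

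TFEB and TFE3 bind E-boxes of the form CACGTG, in lysosomal genes usually flanked as TCACGTG. Promoters were taken from RefSeq (GRCm38.p6, the build of mm10) as the 250 bases before the start, and 29 of the 37 measured members matched, with 33 promoters. Becn1, Ctsb, Rb1cc1, Map1lc3a, Npc1, Pik3c3, Atg12 and Atg16l1 had no entry. CACGTG, which is its own reverse complement, was found in 6 of these 33 promoters (18.2%) and in 8.44% of the 10717 promoters of measured genes. TCACGTG, searched on both strands and always overlapping CACGTG, was found in 4 (12.1%, against 4.95%). A match describes the letters only and is no evidence of binding. The 4 promoters with TCACGTG are shown because they hold the element through which the pair is known to act. They run 5′ to 3′ on the gene's strand, with the element and its flanking T or A in capitals.
Lamp1, chr8:13158911-13159160, plus strand: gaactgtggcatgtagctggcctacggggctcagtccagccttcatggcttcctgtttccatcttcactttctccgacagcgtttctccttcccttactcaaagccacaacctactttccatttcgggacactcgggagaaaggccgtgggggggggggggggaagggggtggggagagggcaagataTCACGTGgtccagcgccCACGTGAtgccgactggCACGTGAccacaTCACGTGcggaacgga
Ctsd, chr7:142387828-142388077, minus strand: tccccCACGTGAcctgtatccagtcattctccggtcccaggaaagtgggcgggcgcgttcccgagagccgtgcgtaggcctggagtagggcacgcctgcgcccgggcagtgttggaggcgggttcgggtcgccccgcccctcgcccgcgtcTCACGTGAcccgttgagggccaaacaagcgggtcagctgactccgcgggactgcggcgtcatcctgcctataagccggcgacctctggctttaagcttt
Atg3, chr16:45158579-45158828, plus strand: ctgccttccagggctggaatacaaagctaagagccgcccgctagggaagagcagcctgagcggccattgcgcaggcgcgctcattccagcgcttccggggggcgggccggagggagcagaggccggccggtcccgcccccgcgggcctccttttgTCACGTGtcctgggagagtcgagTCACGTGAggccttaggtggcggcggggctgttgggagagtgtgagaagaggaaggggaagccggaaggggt
Atg7, chr6:114670846-114671095, plus strand: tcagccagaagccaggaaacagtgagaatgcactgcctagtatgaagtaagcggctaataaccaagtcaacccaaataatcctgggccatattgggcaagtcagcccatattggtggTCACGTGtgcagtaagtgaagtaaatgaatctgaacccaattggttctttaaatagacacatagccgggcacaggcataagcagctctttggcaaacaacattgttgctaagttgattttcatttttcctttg
The Lamp1 promoter holds 4 copies of the element, which begin 61, 45, 28 and 15 bases before the start. Ctsd holds 2 and Atg3 2, and Atg7 has 1 that begins 132 bases before the start. The Atg7 window lies inside the gene, before an alternative RefSeq start 27999 bases past the annotated gene start. The Tfeb windows before starts 901 and 48714 bases past the annotated one lie inside that gene too. The same holds for a window each of Atg4b, Atg14, Wipi2, Tfe3, Nbr1 and Ctsl. The RefSeq start of Lamp1 is the annotated one, and those of Atg3 and Ctsd lie 44 and 211 bases past it. The KO over WT ratios of these 4 genes were -0.02 for Lamp1, 0.21 for Ctsd, 0.06 for Atg3 and -0.02 for Atg7. Atg5 and Ctsl held CACGTG without the flanking T, and had ratios of -0.38 and 0.17. All 3 Tfeb promoters and both Tfe3 promoters in the table lacked CACGTG in this window.

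Of the 4 measured genes of lipid supply and phosphoinositide binding, Atg2a and Atg9a were at least 1.5-fold higher, where 7.43% of all measured genes were. Atg2a (chromosome 19, 6241668 to 6262335, plus strand), which encodes a lipid transfer protein between the endoplasmic reticulum and the forming membrane, had 3789 reads in KO and 1251 in WT, or 25.7 and 16.4 RPKM. It was 1.57-fold higher (1.47 to 1.67). Its paralog Atg2b did not follow, at 12.8 RPKM in KO and 12.3 in WT, 1.04-fold (0.966 to 1.12). The scramblase gene Atg9a (chromosome 1, 75180860 to 75192196, minus strand) had 991 reads in KO and 322 in WT, 10.4 and 6.54 RPKM, and was 1.59-fold higher (1.40 to 1.81). Exons of Atg9a share 31.8% of their bases with Gm29253 on the same strand, which makes its count less certain. Wipi2, which reads the phosphoinositide mark, had 1441 reads in KO and 756 in WT and a ratio of -0.02, with an interval that held 1. With total-count scaling Atg2a was under 1.5-fold, at 0.57, and Atg2b turned to -0.02. With the GC and length trend removed the ratios were 0.16 for Atg2a, 0.31 for Atg9a and -0.06 for Atg2b.

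The 4 members of the initiation complex differed by small amounts and in both directions. Atg101, a part of this complex described below among other genes of the pathway, was 1.69-fold higher (1.39 to 2.07). Ulk1, the kinase that starts autophagy, had 1822 reads in KO and 765 in WT and was 1.23-fold higher (1.13 to 1.34). The related kinase Ulk2 had 1959 reads in KO and 1146 in WT and was 1.13-fold lower (1.05 to 1.22). In RPKM the kinases were level in KO, at 15.1 for Ulk1 and 14.7 for Ulk2, whereas in WT they stood at 12.3 and 16.7. The scaffold gene Rb1cc1 (FIP200) had a ratio of -0.05 and Atg13, the adaptor of the complex, one just below 0, and the intervals of both held 1. After removal of the GC and length trend Ulk1 turned to -0.06 and Rb1cc1 to 0.10, while Ulk2 stayed below 0 at -0.16.

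All 5 genes of the class III phosphatidylinositol 3-kinase complex were lower in the KO library, each by less than 1.5-fold. Below 0 lay 48.6% of all measured genes. The catalytic subunit Pik3c3 (VPS34) had 1753 reads in KO and 1099 in WT and was 1.21-fold lower (1.12 to 1.31). The regulatory subunit Pik3r4 (VPS15) had 1376 reads in KO and 861 in WT and was also 1.21-fold lower (1.11 to 1.32). The ratios of these subunits, which bind each other, were -0.28 and -0.27. Atg14, which directs the complex to autophagosome formation, had 334 reads in KO and 216 in WT and was 1.25-fold lower (1.05 to 1.49). Becn1 (beclin 1) was 1.08-fold lower (1.00 to 1.16), with exons that share 43.9% of their bases with Cntd1 on the opposite strand. Uvrag, the subunit that takes the place of Atg14 in endosomal complexes, was 1.07-fold lower with an interval that held 1 (0.987 to 1.15). The 5 ratios ran from -0.32 for Atg14 to -0.09 for Uvrag with a median of -0.27. All 5 stayed below 0 under each of the other scalings, the larger pseudocount and the removal of the GC and length trend, where the median was -0.20 and Becn1 came nearest to 0, at -0.01.

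The conjugation machinery lay within 1.5-fold throughout, with 2 of 7 members above 0 and 5 below. Of all measured genes 51.4% lay above 0 and 48.6% below. Atg5, whose product is joined to ATG12, differed most, with 1090 reads in KO and 734 in WT, and was 1.30-fold lower (1.18 to 1.43). The LC3-processing protease gene Atg4b had 969 reads in KO and 588 in WT and was 1.17-fold lower (1.06 to 1.30). The other 5 had intervals that held 1. Among them Atg12 was at -0.08, Atg7 at -0.02, Atg16l1, the membrane anchor of the ATG12-ATG5 conjugate, at 0.02, and the E2-like enzymes Atg3 and Atg10 at 0.06 and -0.15. Atg10 rested on 113 reads in KO and 65 in WT. Signs of these small ratios depended on the scaling: with total counts Atg3 and Atg16l1 also turned negative, and with the GC and length trend removed Atg10 and Atg12 turned positive and Atg16l1 negative.

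The ATG8 family, the ubiquitin-like proteins that are attached to the membrane and bind receptors, split. Gabarap, the most abundant member, hardly differed, with 3726 reads in KO and 1827 in WT (1.05-fold, 0.997 to 1.12, and just below 0 on the log2 scale with total counts). Map1lc3b, which encodes LC3B, had 3070 reads in KO and 1956 in WT, or 52.3 and 64.5 RPKM, and was 1.23-fold lower (1.16 to 1.30). Gabarap made up 51.9% of the family's summed RPKM in KO and 47.1% in WT, and Map1lc3b 22.8% and 26.9%. Gabarapl2 (GATE-16) was 1.08-fold lower (1.00 to 1.17) and turned to 0.02 with the GC and length trend removed. Gabarapl1 (chromosome 6, 129533160 to 129542346, plus strand) had 230 reads in KO and 164 in WT and the lowest ratio of all members, -0.46, at 1.38-fold lower (1.12 to 1.69). Its exons share 28.3% of their bases with 1700101I11Rik on the opposite strand. Map1lc3a (chromosome 2, 155276297 to 155278073, plus strand), which encodes LC3A, had few reads, 92 in KO and 29 in WT. It was 1.64-fold higher, the highest ratio of all members, with a wide interval of 1.07 to 2.58, and was at 0.27 with the GC and length trend removed. Map1lc3b and Gabarapl1 kept their direction under every scaling, at -0.33 and -0.48 with the trend removed.

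Cargo receptor genes did not differ detectably at this depth. Sqstm1, which carries ubiquitinated cargo, had 5424 reads in KO and 2792 in WT, and its fold of 1.00 had a narrow interval of 0.960 to 1.05. Nbr1, a related receptor, had 2867 reads in KO and 1407 in WT (1.05-fold, 0.988 to 1.12). Optn, with few reads, had an interval from 0.571 to 2.08 that leaves a 1.5-fold difference undetectable. All 3 ratios were above 0 as scaled, where 51.4% of all measured genes were. With total counts Sqstm1 turned to -0.07 and Nbr1 to just below 0. Sqstm1 also turned to just below 0 with DESeq2 factors and to -0.09 with the GC and length trend removed.

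**Figure D2:**
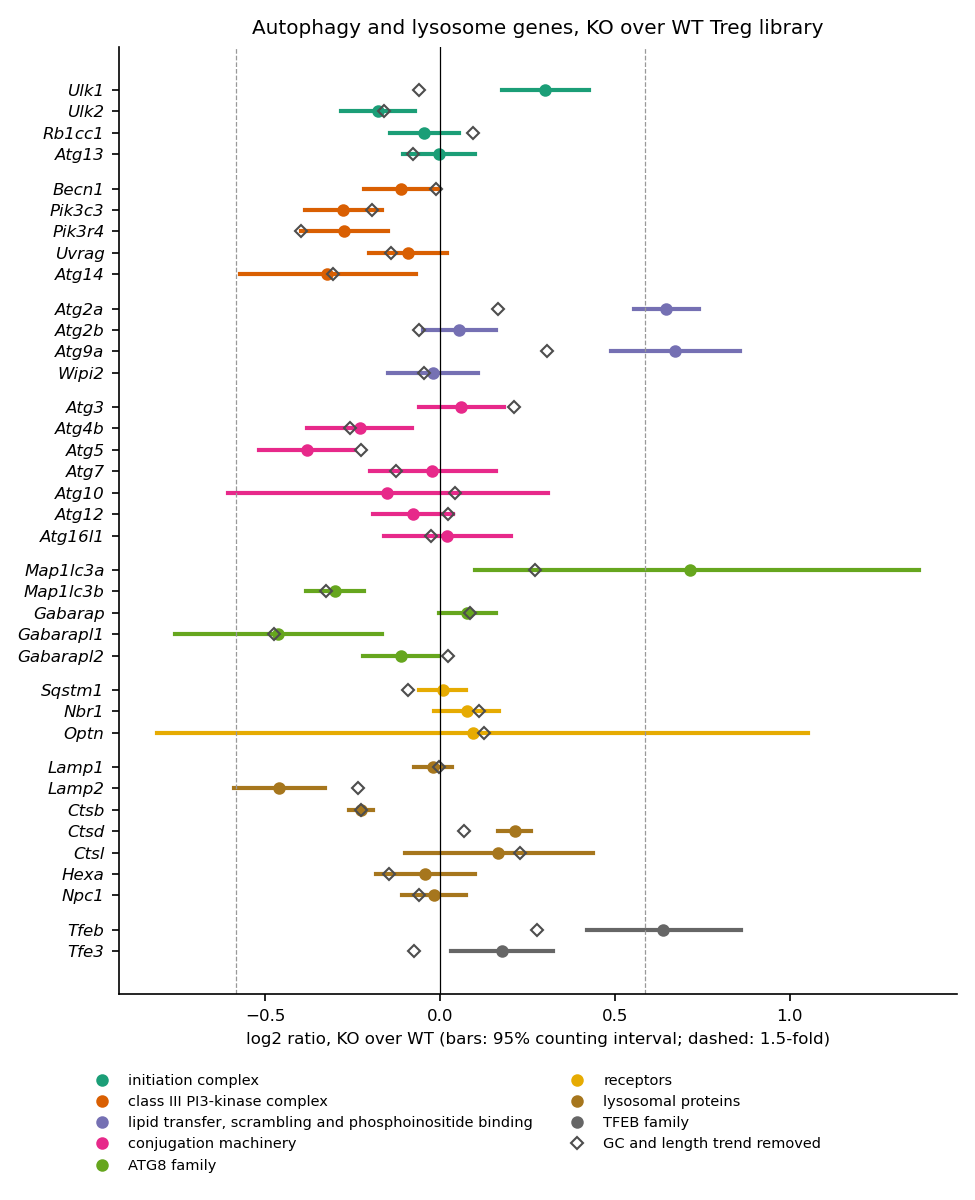
Log2 ratio of KO over WT for the 37 measured members, grouped by role; filled points are ratios without pseudocount, bars their 95% counting intervals, and open diamonds the ratios after removal of the trend with GC content and length, with dashed lines at 1.5-fold. Atg2a, Atg9a, Map1lc3a and Tfeb lie past the upper dashed line and their diamonds lie inside it, and no member lies past the lower one.

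Lysosomal proteins were close to equal between the libraries. Their 7 genes summed to 628 RPKM in KO and 630 in WT, and the median ratio was -0.02. Ctsb and Ctsd, the most counted, stood on opposite sides with narrow intervals. Ctsb had 17886 reads in KO and 10821 in WT and was 1.17-fold lower (1.14 to 1.20), and Ctsd had 12014 and 5359 and was 1.16-fold higher (1.12 to 1.20). Both directions held under every scaling and with the GC and length trend removed, at -0.23 for Ctsb and 0.07 for Ctsd. Exons of Ctsd share 34.4% of their bases with Gm49369 on the same strand. Ctsl, a further cysteine protease, was at 0.17 with 369 and 170 reads and an interval that held 1. Its exons share 26.8% of their bases with Gm47123 on the opposite strand.

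The lysosomal membrane genes differed from each other. Lamp1 had 7981 reads in KO and 4183 in WT, a fold of 0.987 with a narrow interval that held 1. Lamp2 (chromosome X, 38401357 to 38456454, minus strand), needed for fusion with autophagosomes and for uptake of single proteins, had 1162 reads in KO and 827 in WT, or 13.9 and 19.2 RPKM. It was 1.38-fold lower (1.26 to 1.51), and its ratio of -0.46 became -0.23 with the GC and length trend removed. Npc1, the exporter of lysosomal cholesterol, and Hexa, a subunit of the hexosaminidase that degrades gangliosides, had ratios of -0.02 and -0.04, both with intervals that held 1.

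Macrophages are rich in lysosomes, and their markers were present in both libraries. The receptor Csf1r had 5440 reads in KO and 3192 in WT, the complement gene C1qb 2474 and 1189, and Vcam1 4949 and 2572. In CPM the 9 markers ran from 2.50 to 235 in KO and from 2.84 to 266 in WT, none was at 0, and none passed 1.5-fold. Their sum differed by -0.07 on the log2 scale, and Adgre1 (F4/80) had the lowest ratio, -0.41. What share of the lysosomal reads came from such cells was not tested. Beside the macrophage sum of 803 in KO and 841 in WT, Ctsb alone had 772 CPM in KO and 903 in WT.

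**Figure D3:**
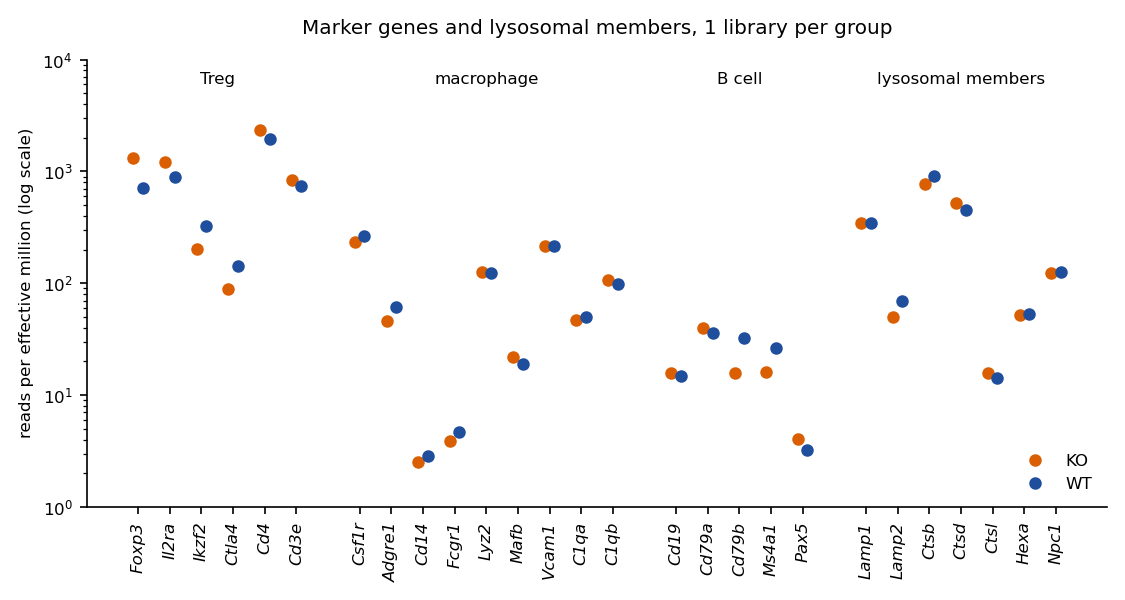
CPM (vertical log axis) in the KO library (orange, left of each pair) and the WT library (blue, right) for markers of Treg cells, of macrophages and of B cells and for the 7 lysosomal members. The lysosomal members run from Ctsl at 15.9 in KO and 14.2 in WT to Ctsb at 772 and 903. Csf1r, the highest macrophage marker, lies within that range, at 235 in KO and 266 in WT. Cd14, the lowest, lies below it, at 2.50 and 2.84.

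The ratios of the members moved with the GC content of their transcripts. Over the 37 measured members the Spearman correlation of the ratio with GC content was 0.54, and over the 10851 measured genes with a transcript it was 0.43. This is a description across genes, which share both libraries. The 4 members in the decile of genes with the highest GC content (above 58.0%) were the 4 called higher: Map1lc3a at 63.1%, Tfeb at 60.7%, Atg2a at 60.0% and Atg9a at 58.6%. In that decile 25.9% of all genes were at least 1.5-fold higher, and the median ratio was 0.38. In the lowest decile, whose median ratio was -0.18, lay Lamp2 at 38.7%, Rb1cc1 at 39.1% and Atg10 at 40.3%, with ratios of -0.46, -0.05 and -0.15. With the trend on GC content and length removed, 0 of 37 members were at least 1.5-fold higher, where 4.39% of genes were, and 0 of 37 lower, where 5.58% were. The corrected ratios ran from -0.48 for Gabarapl1 to 0.31 for Atg9a.

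**Figure D4:**
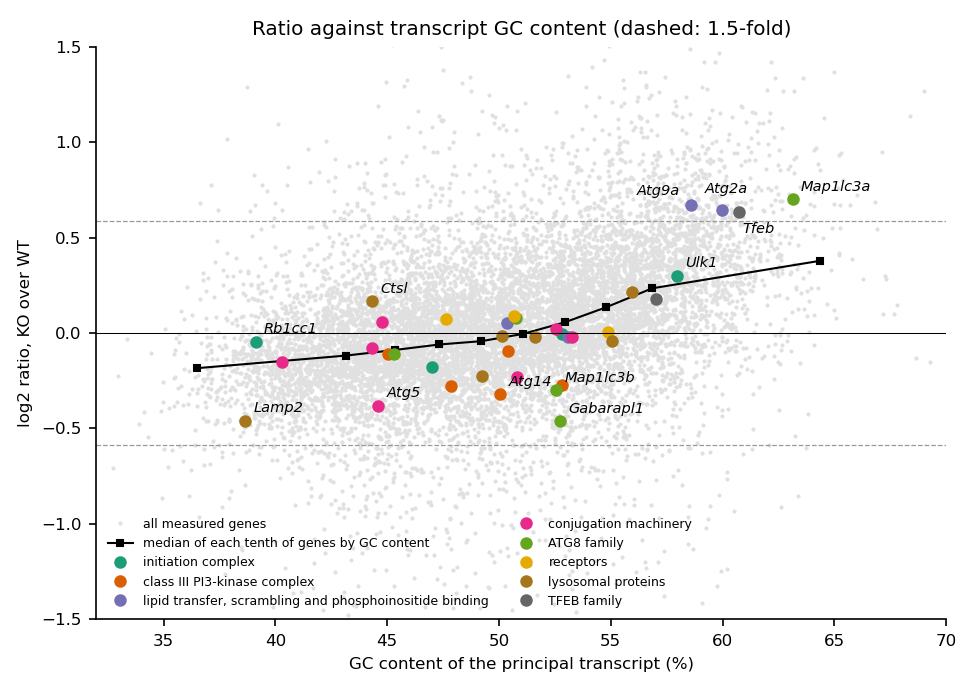
Log2 ratio of KO over WT (vertical axis) against GC content of the principal transcript in percent (horizontal axis) for the measured members (coloured by role) and all measured genes (grey); the black line joins the medians of deciles of genes by GC content, and dashed lines mark 1.5-fold. The medians run from -0.18 to 0.38, and the 4 members past the upper dashed line lie at the GC-rich end.

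Other genes of the pathway were taken as 6 lists of 130 genes, of which 124 were measured. Of these 5 were at least 1.5-fold higher (4.03%, where 7.43% of all genes were) and 0 lower (where 5.51% were), with a median of -0.04. The 24 other autophagy genes held 3 of the 5. Tecpr1, which links autophagosomes to lysosomes, had 6508 reads in KO and 1779 in WT and was 1.89-fold higher (1.79 to 1.99). Atg101, the partner of ATG13 in the initiation complex, was 1.69-fold higher (1.39 to 2.07), and Fyco1, an adaptor for autophagosome transport, 1.52-fold higher (1.38 to 1.67). With the GC and length trend removed these 3 ratios were 0.55, 0.53 and 0.48, under 1.5-fold yet above 0. The protease gene Atg4c, with 62 reads in KO and 45 in WT, was at -0.48 with an interval that held 1.

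Among 13 measured genes listed with the receptors of autophagy and mitophagy, which include the kinases Pink1 and Tbk1, 1 was higher. That is 7.69%, near the 7.43% of all measured genes, and 0 were lower, where 5.51% were. Fkbp8, a mitochondrial outer membrane receptor, was 1.53-fold higher (1.45 to 1.61) and at 0.18 with the GC and length trend removed. Calcoco1 was 1.43-fold higher (1.34 to 1.53), the mitophagy receptor Fundc1 1.35-fold lower (1.21 to 1.51), and the mitophagy kinase Pink1 1.19-fold higher (1.09 to 1.30, and -0.03 with the trend removed). All 39 measured genes of the list of hydrolases lay within 1.5-fold, with a median of -0.06. Past it lay 7.43% of all measured genes on the higher side and 5.51% on the lower. That list also holds Npc2, Psap, Gm2a and Grn, which are lysosomal proteins but not hydrolases. The largest differences there were Gla (1.40-fold lower, 1.06 to 1.86), the cysteine protease Ctss (5055 reads in KO and 3541 in WT, 1.35-fold lower, 1.30 to 1.41), Arsa (1.31-fold higher, 1.11 to 1.54) and the ceramidase Asah1 (1.30-fold lower, 1.18 to 1.44). With the trend removed the ratios of Gla, Ctss, Arsa and Asah1 were -0.37, -0.33, 0.14 and -0.21. Of 19 measured membrane proteins only the tetraspanin Cd63 passed 1.5-fold, on the higher side (5.26%, where 7.43% of all measured genes were). It had 56 reads in KO and 17 in WT, with an interval from 0.976 to 3.13 that held 1. With the trend removed Cd63 was at 0.76, the only gene of the 6 lists still past 1.5-fold, where 4.39% of all genes were higher. Laptm4b was 1.43-fold lower (1.12 to 1.82), the Batten disease gene Cln3 1.35-fold higher (1.17 to 1.55), and the iron transporter Slc11a2 1.33-fold lower.

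The proton pump of the lysosome, the V-ATPase, had 7 of 16 measured subunits above 0 and 9 below. Of all measured genes 51.4% lay above 0 and 48.6% below. The median of the subunits was -0.18, or -0.07 with the GC and length trend removed. Subunits of the cytosolic part were on both sides: Atp6v1d was 1.37-fold lower (1.29 to 1.46), Atp6v1c1 1.34-fold lower (1.21 to 1.48) and Atp6v1f 1.27-fold higher (1.16 to 1.38). With the trend removed the ratios of Atp6v1d, Atp6v1c1 and Atp6v1f were -0.29, -0.28 and 0.13. In the membrane part Atp6v0a1 was 1.26-fold higher (1.08 to 1.48), and Atp6v0c was listed at 0 in both libraries. Reads aligned to several places were left out, so this 0 need not mean that Atp6v0c is silent. Of the 13 measured genes of the TFEB family and its control, none passed 1.5-fold, where 7.43% of all measured genes were higher and 5.51% lower. The Ragulator subunits Lamtor4 and Lamtor2, which anchor mTORC1 signalling to the lysosome, were 1.43-fold (1.16 to 1.76) and 1.42-fold (1.17 to 1.72) higher, while Lamtor5 of the same complex was 1.33-fold lower (1.12 to 1.59). With the GC and length trend removed the ratios of Lamtor4, Lamtor2 and Lamtor5 were 0.30, 0.23 and -0.44. Fnip2, a partner of folliculin, was 1.36-fold higher with an interval that held 1 (0.973 to 1.93). Mitf, the further family member, had 72 reads in KO and 48 in WT, and Tfec, with 23 and 16, was not measured.

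**Figure D5:**
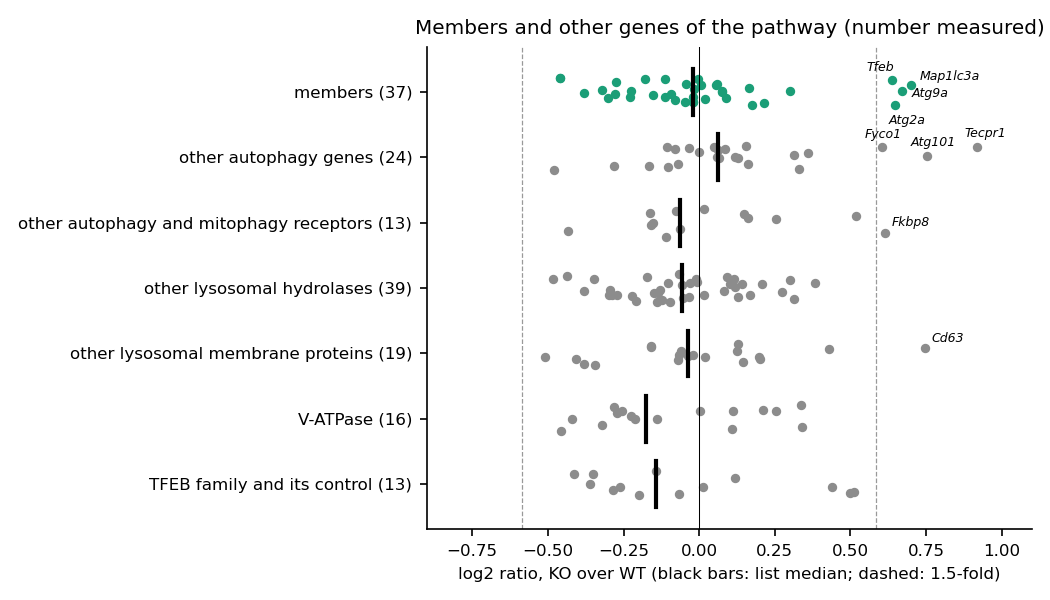
Log2 ratio of KO over WT for the 37 measured members (green) and the measured genes of the 6 other lists (grey), 1 point per gene, with black bars at list medians and dashed lines at 1.5-fold; vertical scatter within a list only separates points. List medians lie between -0.18 for the V-ATPase and 0.06 for other autophagy genes, and no gene lies past the lower dashed line.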

How the data were processed

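The authors deposited raw read counts per gene symbol for both libraries; per the labels' protocols, RNA was extracted with Trizol and mRNA captured on beads, and the build mm10 and the tools HTSeq and TopHat2 2.0.3 are named in the submitters' processing notes. Which annotation and which strand setting HTSeq took is, in the sources used here, not given. Reads outside annotated genes (no_feature, 6.81% in KO and 6.26% in WT), shared between genes (1.57% and 1.53%) or aligned to several places (15.0% and 15.6%) were left out of library sizes, which lowers the count of a gene that has a close copy. Counts were scaled with TMM factors (0.974 for KO, 1.03 for WT; edgeR 4.0.16, R 4.3.3) to the mean effective library size, and ratios took a pseudocount of 1. Genes with a mean of at least 20 reads were measured. Intervals are exact conditional binomial (Clopper-Pearson) ones at 95%; the counts are of reads, not of independent molecules, so they cover counting error only. Groups of 1 library allow no test; from edgeR and DESeq2 1.42.0 came the scaling alone. Transcript GC content, length, positions and exon overlap come from GENCODE M21 (GRCm38), using the APPRIS principal transcript (99.6% of measured genes matched). The trend on GC content and length was a loess surface with a span of 0.5. Ratios and intervals were checked on simulated Poisson counts. These held no GC trend and no spread between mice, so the check covers counting error only. Alternatives were DESeq2, upper-quartile and total-count scaling, a pseudocount of 5, no low-count filter or one of 100 reads, a 2-fold call, and members with over 25% shared exons left out, the last chosen after seeing the data. Members, lists and the rule for named genes (every member, and up to 4 genes per other list by size of ratio) were chosen with earlier results of these data known. The targeted gene is not reported here. Python 3.11.15, pandas 2.3.3 and matplotlib 3.10.9 were used.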

Additional observations from a re-analysis of the deposited data

How the results depend on the processing

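The count of members at least 1.5-fold higher was 4 as reported, where 7.43% of all measured genes were. It was also 4 with DESeq2 factors, upper-quartile scaling, a pseudocount of 5 or no low-count filter. With a mean of at least 100 reads it was 3, as it was without members that share over 25% of their exons. With total-count scaling it was 2 (where 5.72% of all genes were higher). With the GC and length trend removed it was 0 (where 4.39% were), and at a 2-fold call 0 (where 1.59% were). Calls at 1.5-fold lower were 0 under each of these. The other pathway lists together gave 5 higher calls as reported, 3 with total counts, 1 with the GC and length trend removed and 0 at 2-fold. The shares of all measured genes called higher were 7.43%, 5.72%, 4.39% and 1.59% in that order. With no low-count filter these lists gave 8 higher calls. Their lower calls were 0 except 1 with total counts, where 6.95% of all measured genes were lower. The removal of the trend moved 14 of 37 member ratios outside their counting intervals and total counts moved 4; it changed the sign of 9, total counts of 6 and DESeq2 factors of 1. No called member turned its direction. Total counts shifted the median of all genes by -0.08. No paired analysis was possible because each group has 1 library, and for the same reason no replicate could be left out. Depth limits Optn, Map1lc3a, Atg10 and Wipi1, with the fewest reads.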
